A study of Mus musculus with 6 samples.

Results

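The 549 regions described here are HCFC1 binding sites of control cells that were found again after knockdown of HCFC1 itself and not after knockdown of ERRα. They were chosen by the deposited peak positions: a peak of the control list belonged to them when at least 1 bp of it was covered by a peak of the HCFC1-knockdown list and no bp by a peak of the ERRα-knockdown list. They are 549 of 36147 control peaks (1.52%). The mirror class, control peaks covered after ERRα knockdown and not after HCFC1 knockdown, held 7177 of 36147 (19.9%), and is called ERRα-only below. Both counts follow from the rule and are given as a description.

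HCFC1 was mapped by chromatin immunoprecipitation and sequencing in Hepa1-6 cells, a mouse hepatoma line labelled as hepatocyte and wild type. The groups were siHCFC1 (siRNA against HCFC1), siERRa (siRNA against ERRα) and siControl (a scrambled siRNA pool). Every group received 100 nM siRNA, repeated after 48 h, which the labels sum as 200 nM over 96 h. Each list stands for 1 library from this cell line, made from 2 pooled immunoprecipitations. No list carries a replicate, so differences between classes have counting intervals and no p-value.

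HCFC1 is a chromatin coregulator without a DNA-binding domain of its own that is brought to promoters by sequence-specific factors, among them THAP11 and ZFP143, and that recruits histone-modifying enzymes there. ERRα is a nuclear receptor without a known natural ligand, encoded by Esrra, that activates genes of mitochondrial energy production and lipid use in liver and other tissues. An siRNA lowers its target protein without removing it, so HCFC1 peaks can still be called after HCFC1 knockdown.

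Promoter sequences show what DNA lay under such peaks. Shown are the 250 bases before the transcription start in RefSeq (GRCm38.p6, the mm10 build), all on the minus strand and written 5′ to 3′ along the gene. Gm5106, Lipo2 and Decr2 are promoter peaks with high control scores for this class and no ERRα-knockdown peak within 10 kb. Plin2, the gene of a protein that coats lipid droplets, was added after its values were seen, and Hcfc1 carries the highest-scoring ERRα-only peak. The windows are chr5:8798524-8798773 for Gm5106, chr19:33761952-33762201 for Lipo2, chr17:26090165-26090414 for Decr2, chr4:86670060-86670309 for Plin2 and chrX:73966358-73966607 for Hcfc1. Control peaks covered 214 of the bases of the Lipo2 window and all 250 of the others. Capitals mark matches, on either strand, to the THAP11 and ZFP143 site core ACTACAA, the GC box GGGCGG, the ETS site CCGGAAG, the NRF1 core TGCGCA, the CCAAT box CCAAT, the ERR element TCAAGGTCA and the E-box CACGTG.
Gm5106: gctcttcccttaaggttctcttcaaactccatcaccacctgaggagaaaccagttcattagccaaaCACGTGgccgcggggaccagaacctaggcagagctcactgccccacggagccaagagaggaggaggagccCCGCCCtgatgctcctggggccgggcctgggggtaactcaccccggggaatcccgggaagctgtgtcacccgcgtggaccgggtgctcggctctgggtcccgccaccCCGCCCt
Lipo2: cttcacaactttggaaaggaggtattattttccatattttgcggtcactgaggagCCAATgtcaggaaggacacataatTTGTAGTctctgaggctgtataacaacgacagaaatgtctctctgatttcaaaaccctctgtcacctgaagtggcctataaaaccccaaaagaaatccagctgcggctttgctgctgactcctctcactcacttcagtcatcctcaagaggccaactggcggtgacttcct
Decr2: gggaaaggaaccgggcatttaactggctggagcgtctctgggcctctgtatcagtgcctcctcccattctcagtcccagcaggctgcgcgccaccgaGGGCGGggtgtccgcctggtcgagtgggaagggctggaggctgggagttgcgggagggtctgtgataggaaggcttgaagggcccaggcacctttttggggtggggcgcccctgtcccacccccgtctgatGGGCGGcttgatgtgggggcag
Plin2: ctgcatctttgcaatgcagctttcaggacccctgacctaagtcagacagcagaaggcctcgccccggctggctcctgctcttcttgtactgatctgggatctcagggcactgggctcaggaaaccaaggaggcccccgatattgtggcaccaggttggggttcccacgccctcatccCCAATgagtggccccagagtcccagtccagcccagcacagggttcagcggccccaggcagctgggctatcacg
Hcfc1: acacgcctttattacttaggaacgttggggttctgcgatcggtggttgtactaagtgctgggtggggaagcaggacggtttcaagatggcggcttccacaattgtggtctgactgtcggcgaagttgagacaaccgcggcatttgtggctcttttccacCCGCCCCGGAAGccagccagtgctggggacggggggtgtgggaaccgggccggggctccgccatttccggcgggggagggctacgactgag
The GC content was 65.2% for Gm5106, 45.6% for Lipo2, 66.0% for Decr2, 61.6% for Plin2 and 61.2% for Hcfc1. Gm5106 and Decr2 each held 2 GC boxes, and Gm5106 an E-box. Lipo2 held a reversed THAP11 and ZFP143 core, TTGTAGT, and a CCAAT box, which Plin2 also held. In Hcfc1 the GC box and the ETS site overlapped by a base. Of all 32851 RefSeq windows, 2.81% held the THAP11 and ZFP143 core, 32.7% the GC box, 33.8% the CCAAT box, 6.91% the ETS site, 6.02% the E-box, 6.43% the NRF1 core and 0.387% the ERR element. These are letter matches and not mapped sites.

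The reach of the lists bears on every count. Both knockdown lists end within 20 kb of a transcription start, at 19994 bp after HCFC1 knockdown and 19993 bp after ERRα knockdown, while the control list reaches 1.711 Mb. Of the control peaks, 10630 (29.41%) lay farther out and 10 had no distance, and 1 of these 10640 was among the 549 (at Pax3, at -20280 bp from the start). Among the 25507 control peaks within 20 kb, 548 were kept only after HCFC1 knockdown (2.15%, exact binomial 95% interval 1.97 to 2.33), 7168 were ERRα-only (28.1%), 7496 were kept after both knockdowns (29.4%) and 10295 were in neither list (40.4%). These intervals, and those below, cover counting error only. The lists held 12610 peaks after HCFC1 knockdown, 21881 after ERRα knockdown and 36147 in control cells, with median widths of 466, 711 and 394 bp. Read numbers are not in the lists, so depth is unknown, and neither siRNA's effect on its protein was measured in them.

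Being kept after HCFC1 knockdown was uncommon where the ERRα-knockdown list had no peak. Of 10843 control peaks within 20 kb that were missing after ERRα knockdown, 548 were kept after HCFC1 knockdown (5.05%, 4.65 to 5.48). Of the 14664 that were kept after ERRα knockdown, 7496 were (51.1%, 50.3 to 51.9). Read the other way, 548 of the 8044 peaks kept after HCFC1 knockdown lacked an ERRα-knockdown peak (6.81%, 6.27 to 7.39), and the other 93.2% had one. These shares restate the overlaps that define the classes and are a description. They are not matched for score: the median control score was 143 for peaks kept after both knockdowns and 28 for those in neither list.

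The 549 peaks were low-scoring sites. The Peak Score is the authors' own value, its scale is not stated, and it is compared here only within a list. The control scores of the 549 ran from 13, the list's minimum, to 151, with a median of 33 (quartiles 24 and 43). The ERRα-only peaks ran from 13 to 1924 with a median of 44, peaks kept after both knockdowns had a median of 143, and those in neither list within 20 kb a median of 28. The class thus sat between the peaks in neither list and the ERRα-only peaks, and the 250 of its peaks at or above the control list's median were 45.5% of it. A score of 100 or more was reached by 8 of the 549, against 1042 of the 7177 ERRα-only peaks. In the HCFC1-knockdown list the peaks over the 549 had scores from 13 to 157 with a median of 30, against 36 for that whole list and 51 over control peaks kept after both. There, 187 of the 549 (34.1%) lay under a peak at or above that list's median. The 2 scores hardly followed each other across the 549 (Spearman's rho 0.0648 across regions of the same libraries, a description).

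**Figure D1:**
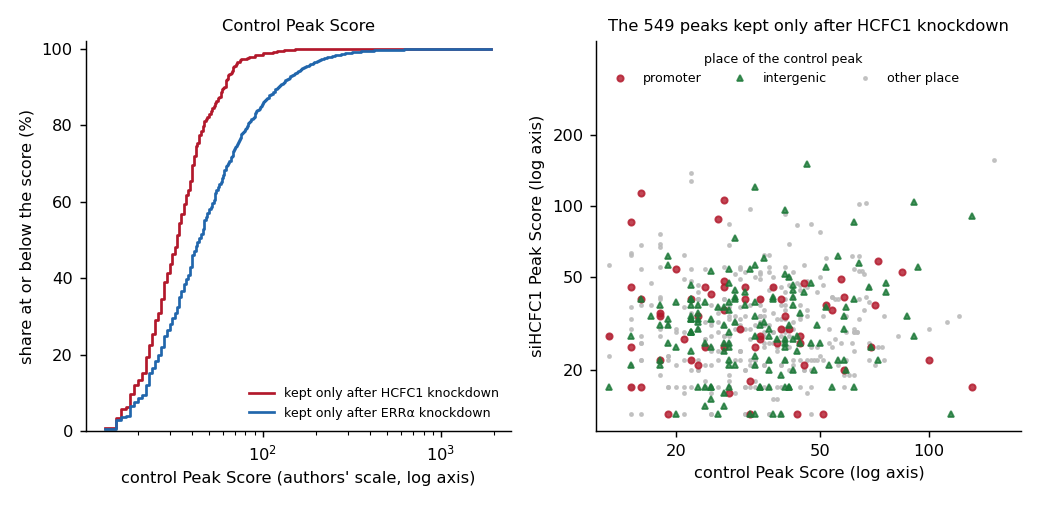
Left, share of each class (vertical axis, %) at or below a control Peak Score (horizontal axis, log scale) for the 549 peaks kept only after HCFC1 knockdown (red) and the 7177 ERRα-only peaks (blue): the red curve ends at 151 and lies left of the blue one, with medians of 33 (red) and 44 (blue). Right, HCFC1-knockdown against control Peak Score (both log scale) for each of the 549, by place label: points spread without a line, with rho 0.0648.

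The highest-scoring of the 549 had scores after HCFC1 knockdown that ranged from 13 to 157. A peak in an intron of E030030I06Rik (chr10:22142518-22142887), over a B1 SINE repeat, had the highest score of the 549 in both lists. It had 157 after HCFC1 knockdown and 151 in control cells. At the promoter of Fam135b (chr15:71727323-71728463) the score was 17 after HCFC1 knockdown and 131 in control cells, and the nearest ERRα-knockdown peak was 818968 bp away. A peak at -1236 bp from Resf1, the gene of a retroelement silencing factor, had 90 after HCFC1 knockdown and 131 in control cells and lay over an RLTR48B long terminal repeat. The next by control score lay at a non-coding exon of BC029722 (34 after HCFC1 knockdown, 121 in control cells) and at -3107 bp from Chd9, a chromodomain helicase gene, whose peak kept only the minimum score of 13 after HCFC1 knockdown, against 115 in control cells. Peaks in introns of Entpd7, which encodes a nucleotide-cleaving enzyme, and of Kdelr3, a receptor that returns proteins to the endoplasmic reticulum, had scores of 32 and 30 after HCFC1 knockdown, against 112 and 100 in control cells. The Gm5106 promoter peak (chr5:8798124-8798813) had 22 after HCFC1 knockdown and 100 in control cells. Next came a peak near the microRNA gene Mir130a (siHCFC1 55, siControl 93). The scores of 2 lists are not on a shared scale, so no pair is read as a change.

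Ranked by the HCFC1-knockdown score, other genes led. After E030030I06Rik came peaks at the microRNA gene Mir7k, with 151 after HCFC1 knockdown and 46 in control cells, and at Bmp6, a bone morphogenetic protein gene, with 138 after HCFC1 knockdown and 22 in control cells. Zfpm2, which encodes a GATA-factor cofactor, had 127 after HCFC1 knockdown and 22 in control cells, and the vomeronasal receptor gene Vmn1r43 had 120 after HCFC1 knockdown and 33 in control cells. At Bmp6 the 2 peaks shared 28 bp, and ERRα-knockdown peaks lay 367 bp from the Mir7k peak, 289 bp from the Bmp6 peak and 232 bp from the Zfpm2 peak. These 3 peaks thus had an ERRα-knockdown peak close by without sharing a base with it.

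How close the 549 came to the limits of the rule was described from both sides. The overlap with the HCFC1-knockdown peak ran from 1 to 668 bp with a median of 241 bp, covered at least 50% of the control peak in 346 (63.0%) and its whole width in 78. The smallest overlaps were 1 bp at Safb2 and at Rras and 2 bp at the clock gene Per1. The ERRα-knockdown list came nearest at Atoh8, a basic helix-loop-helix factor gene (2 bp away), Gstp2, a glutathione transferase gene (4 bp), and the orphan nuclear receptor gene Nr4a2 (9 bp). Just outside the class, with an HCFC1-knockdown peak and a few bp under an ERRα-knockdown peak, were control peaks near the hepatic factor gene Foxa2 (1 bp, control score 56), Rara (10 bp, 33) and Kirrel (13 bp, 38). The 549 were covered by 544 HCFC1-knockdown peaks, of which 46 were themselves also overlapped by an ERRα-knockdown peak.

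The class was poorer in promoters and richer in intergenic sites than ERRα-only peaks of the same score. For this comparison each ERRα-only peak was weighted so that the scores were spread exactly as in the 549. The 5716 of 7177 at a score that occurs among the 549 entered. The promoter label was carried by 60 of the 549 (10.9%, 8.44 to 13.8), against 21.7% of the score-matched ERRα-only peaks, a difference of -10.7 percentage points. The intergenic label was carried by 150 (27.3%, 23.6 to 31.3), against 16.1% of the ERRα-only peaks, a difference of 11.3 points. Introns held 226 (41.2%, 37.0 to 45.4), against 37.5% of the ERRα-only peaks, and exons held 75 (13.7%, 10.9 to 16.8), against 14.5% of the ERRα-only peaks. Both intervals cover the ERRα-only share. The smaller labels were 5′ UTR (5 of the 549, 0.911%, against 3.54% of ERRα-only peaks), 3′ UTR (9, 1.64%, ERRα-only 1.73%), gene end (17, 3.1%, ERRα-only 4.09%) and non-coding exon (7, 1.28%, ERRα-only 0.899%). Peaks in neither list, weighted in the same way, were 6.22% promoter and 31.1% intergenic, so the 549 lay between them and the ERRα-only peaks in both shares. In exons their share exceeded that of the peaks in neither list (7.91%).

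**Figure D2:**
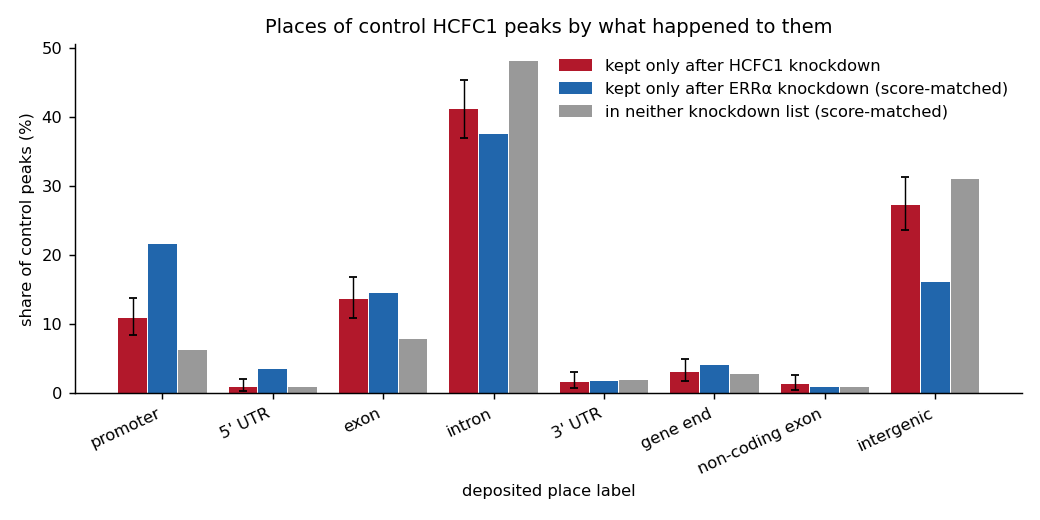
Share of control peaks (vertical axis, %) with each deposited place label (horizontal axis) for the 549 peaks kept only after HCFC1 knockdown (red, exact 95% counting intervals), ERRα-only peaks (blue) and peaks in neither knockdown list within 20 kb (grey), the blue and grey classes weighted to the scores of the 549. For promoters the red bar, 10.9%, lies below the blue one, 21.7%, and for intergenic sites, 27.3%, above it, 16.1%.

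The promoter gap depended on how a peak was counted as kept, which changes the comparison class as well as the 549. When a peak counted as kept only with its centre within 200 bp, 2000 control peaks fell into the class in place of 549, the promoter difference turned to 1.68 percentage points and the intergenic difference to -1.12. With a reciprocal overlap of at least 50% the class held 1240 peaks and the differences were -1.48 and 0.495 points. With no ERRα-knockdown peak allowed within 5000 bp, the class held 188 peaks. The promoter difference was then -1.53 points and the intergenic difference 9.1 points. In that setting a control peak with an ERRα-knockdown peak within 5000 bp counted as kept, so the comparison class took in peaks without overlap. The promoter share was 13.8% of the 188, against 15.4% of that comparison class, where the main setting gave 10.9% and 21.7%. Trimming ERRα-knockdown peaks to the median HCFC1-knockdown width, an alternative chosen after the data were seen, gave 1220 peaks and differences of -6.44 and 4.67. The ERRα-knockdown peaks were the wider ones (median 711 bp, against 466 bp after HCFC1 knockdown). Their part in the class's makeup was otherwise not tested.

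The distance to the nearest transcription start followed the labels. Its median size was 4515 bp for the 549, against 1360 bp for the score-matched ERRα-only peaks and 5771 bp for those in neither list. Within 1 kb of a start lay 108 of the 549 (19.7%, 16.4 to 23.2), against 42.7% of the ERRα-only peaks. At 5 kb or more lay 262 of the 549 (47.7%, 43.5 to 52.0), against 21.2% of the ERRα-only peaks. The control peaks themselves were narrower, with a median of 371 bp (range 227 to 1542), against 425 bp for the score-matched ERRα-only peaks, a difference of -54 bp. It turned to 230 bp with centres within 200 bp and to 6.5 bp when a peak counted as missing only with no ERRα-knockdown peak within 5000 bp. The comparison class changed with both settings as well.

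Split by score, in 4 bands chosen after the values were seen, the promoter share of the 549 stayed low as the score went up, while that of the ERRα-only peaks went up. For scores of 13 to 24 it was 14.3% (8.95 to 21.2) for the 549, against 18.2% (16 to 20.5) for the ERRα-only peaks, and the intervals overlapped. For scores of 25 to 33 it was 9.86% (5.5 to 16) for the 549, against 19.2% for the ERRα-only peaks, and for 34 to 43 it was 7.58% (3.69 to 13.5), against 21.1% for the ERRα-only peaks. In the top band, 44 to 151, it was 11.9% (6.93 to 18.5) for the 549, against 32.5% for the ERRα-only peaks. Within a band the ERRα-only peaks were not weighted by score. Scores of the classes can thus still differ inside a band, above all in the top one, the widest. The intergenic share of the 549 lay between 25.9% and 29.6% in all 4 bands, and that of the ERRα-only peaks between 11.4% and 18.7%.

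**Figure D3:**
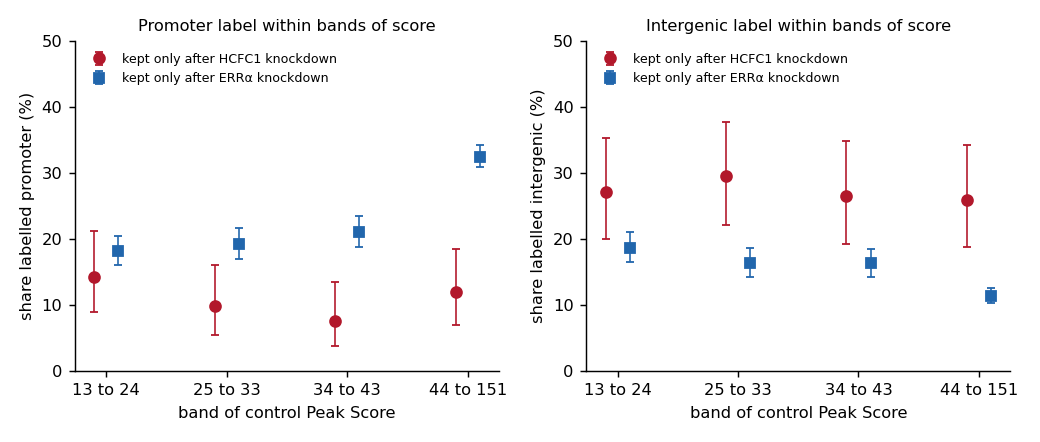
Share of peaks labelled promoter (left) and intergenic (right; vertical axes, %) in 4 bands of control Peak Score (horizontal axes) for the 549 peaks kept only after HCFC1 knockdown (red circles) and ERRα-only peaks (blue squares), with exact 95% counting intervals. In the top band 11.9% of the red class and 32.5% of the blue class were promoters. The classes were not weighted by score within bands.

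The 60 promoter peaks carried genes of varied function. After Fam135b and Gm5106 the highest control scores were at Lipo2, a lipase family gene (chr19:33761936-33762165), with 52 after HCFC1 knockdown and 84 in control cells. Stom, which encodes the membrane protein stomatin, had 58 after HCFC1 knockdown and 72 in control cells. Decr2, the peroxisomal 2,4-dienoyl-CoA reductase gene (chr17:26089844-26090511), had 38 after HCFC1 knockdown and 71 in control cells, with the 2 peaks sharing 668 bp, the longest overlap of the class. Others were the protease inhibitor gene Serpinb6b (siHCFC1 25, siControl 69), the potassium channel gene Kcnk2 (siHCFC1 41, siControl 58), the 14-3-3 gene Ywhaz (siHCFC1 49, siControl 57) and the proton channel gene Otop1 (siHCFC1 36, siControl 54). Of the promoter peaks named here, 6 lay over 15 kb from any ERRα-knockdown peak (Fam135b, Gm5106, Lipo2, Serpinb6b, Kcnk2 and Otop1), whereas Stom had one within 500 bp. Of the 60, 26 (43.3%, 30.6 to 56.8) were at a gene with no ERRα-knockdown peak assigned anywhere, against 39.7% of the 624 promoter peaks in neither list, and 9 (15%, 7.1 to 26.6) at a gene with one labelled promoter, against 13.1% of those 624. Both intervals cover the share in neither list.

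The 549 often lay beside an ERRα-knockdown peak. The gap to the nearest one had a median of 2289 bp and ran from 2 to 818968 bp. It was under 500 bp for 120 of the 549 (21.9%, 18.5 to 25.6), against 14.2% of score-weighted peaks in neither list, and under 5000 bp for 361 (65.8%, 61.6 to 69.7), against 52.5% of the peaks in neither list. It was under 20 kb for 86.3% of the 549 (83.2 to 89.1), against 82.8% of the peaks in neither list. Of the 46 peaks under an HCFC1-knockdown peak that an ERRα-knockdown peak also touched, 43 had the ERRα-knockdown peak within 500 bp. The gap there cannot exceed the width of the shared HCFC1-knockdown peak, so this count is largely set by the overlaps. These 43 count among the 120 under 500 bp. Peaks in neither list lie under no HCFC1-knockdown peak and cannot be placed so. The contrast of 21.9% with 14.2% is thus partly set by the overlaps that define the classes. A comparison without the 46 was not made. The promoter label was most frequent at both ends of this range: 20.0% (13.3 to 28.3) of the 120 nearest, 4.15% (2.01 to 7.5) of the 241 between 500 and 5000 bp, 7.08% (3.11 to 13.5) of the 113 between 5 and 20 kb and 24.0% (14.9 to 35.3) of the 75 farther away. These bands were also chosen after the values were seen.

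**Figure D4:**
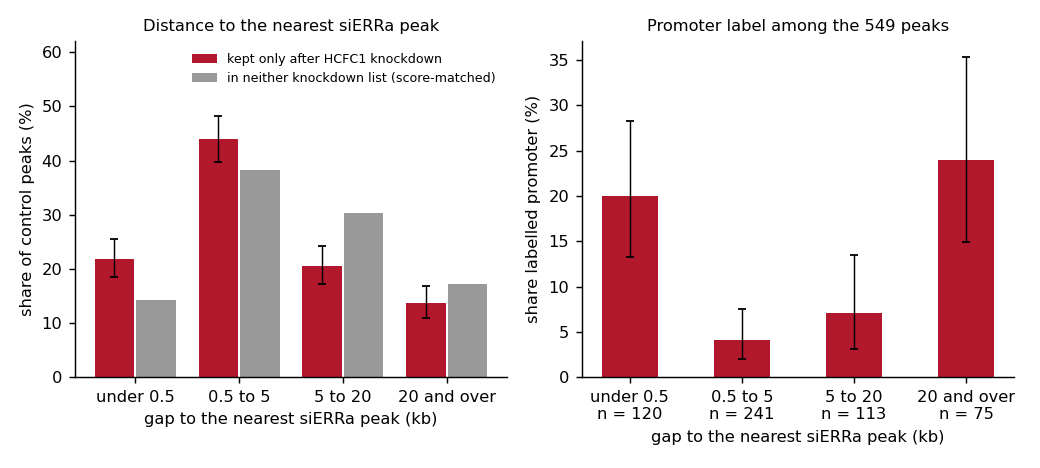
Left, share of control peaks (vertical axis, %) by gap to the nearest ERRα-knockdown peak (horizontal axis, kb) for the 549 peaks kept only after HCFC1 knockdown (red, exact 95% counting intervals) and score-weighted peaks in neither list (grey): 21.9% of the red class and 14.2% of the grey one lay under 0.5 kb. Right, share of the 549 labelled promoter (%) in the same bands, which was 20.0% in the nearest and 24.0% in the farthest band. The red share under 0.5 kb is partly set by the overlaps that define the classes.

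The 18 promoter peaks with no ERRα-knockdown peak within 20 kb were the sites farthest from the rule's limit, and those named here beyond the highest-scoring ones were picked after their values were seen. The Plin2 promoter peak (chr4:86669896-86670333) had 28 after HCFC1 knockdown and 44 in control cells, and the nearest ERRα-knockdown peak was 53906 bp away. Gli2, a hedgehog pathway factor gene, had 26 after HCFC1 knockdown and 44 in control cells, with a gap of 366478 bp. Cdkn2a, a cell-cycle inhibitor gene, was closer, with scores of 17 after HCFC1 knockdown and 15 in control cells and a gap of 12229 bp. Except at Fam135b and Gm5106, the control scores of these 18 stayed under 100.

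Repeats lay under the 549 more often than under score-matched ERRα-only peaks, as far as the deposited annotation names them, which it does for intronic and intergenic peaks. A repeat was named for 97 (17.7%, 14.6 to 21.1), against 9.3% of the ERRα-only peaks and 22.6% of those in neither list. These shares, and those below, are over all peaks of a class. Introns and intergenic sites held 41.2% and 27.3% of the 549, against 37.5% and 16.1% of the ERRα-only peaks. The repeat shares thus partly carry the difference in place, and no comparison within a place label was made. Elements of the annotation's LTR class, which are endogenous retroviruses and related elements, made up 34 of the 549 (6.19%, 4.33 to 8.55), against 2.74% of the ERRα-only peaks and 7.73% of those in neither list, and 5 of the 34 were at internal sequence rather than a terminal repeat. SINEs made up 28 (5.1%, 3.42 to 7.29), and this interval covers the 3.66% of the ERRα-only peaks and lies below the 8.37% of those in neither list. LINEs made up 10 (1.82%), against 0.803% of the ERRα-only peaks. By family the LTR elements were 13 of the MaLR, 11 of the ERVK, 6 of the ERV1 and 4 of the ERVL type. A CpG island was named for 17 (3.1%, 1.81 to 4.91), against 7.82% of the ERRα-only peaks and 1.0% of those in neither list. The island label comes from the same annotation entry as the repeats. It does not give the share of all peaks, promoter peaks among them, that lie in an island.

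The 549 were assigned to 517 genes. For 363 of the 549 (66.1%, 62 to 70.1) the gene had another control peak that was covered after ERRα knockdown, against 65.4% of the score-weighted peaks in neither list, which the interval covers. No ERRα-knockdown peak was assigned to 110 genes, which held 113 of the 549 (20.6%, 17.3 to 24.2), against 22.8% of the score-weighted peaks in neither list. Protein-coding genes took 480 of the peaks (87.4%, against 91.1% of score-matched ERRα-only peaks), non-coding RNA genes 65 (11.8%, against 8.11% of the ERRα-only peaks) and pseudogenes 4. Genes of microRNAs took 17 of the 65 (3.1% of the 549, against 2.66% of the ERRα-only peaks), among them Mir29b-1 and Mir92b. More than 1 of the 549 fell to 31 genes, and Gucy2g, a guanylate cyclase gene, had the most with 3.

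Of the 549, 381 had another of the class within 1 Mb, which was not set against other control peaks, themselves unevenly spread. Gm21992 on chromosome 19 had the most neighbours of the class within 1 Mb, with 7, and 13 peaks had 6. The run with most peaks of the class held 12 of the 549 over 2.93 Mb around Gm21992, among 364 control peaks within 20 kb of a start and 129 ERRα-only peaks. A run on chromosome 15 held 11 over 5.04 Mb, among 376 control peaks and 114 ERRα-only peaks. Among the 13 were Aif1, Tnf, H2-Q2 and 2300002M23Rik in the major histocompatibility region of chromosome 17. That region held 7 of the 549 over 0.972 Mb, among 93 control peaks within 20 kb of a start and 24 ERRα-only peaks. At Tnf, the tumour necrosis factor gene, the scores were 13 after HCFC1 knockdown and 21 in control cells, and at Aif1 they were 27 after HCFC1 knockdown and 32 in control cells. The densest run, found after the values were seen, was at Gucy2g and Acsl5, an acyl-CoA synthetase gene, on chromosome 19, with 5 of the 10 control peaks in 0.0286 Mb in the class and 1 ERRα-only. Near the homeobox genes Gsx1 and Pdx1 on chromosome 5 it was 5 of 16, with 2 ERRα-only. From Ugt1a6a, a glucuronosyltransferase gene, to Gm19589 on chromosome 1 it was 6 of 20, with 2 ERRα-only. Each run was cut at its first and last peak of the class, which by itself raises the share of the class in it. Over all control peaks within 20 kb that share was 2.15%. Whether the class is clustered was not tested.

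The chromosomes of the 549 differed from those of the ERRα-only peaks. Chromosomes 9, 12, 14, 16 and X, grouped after their values were seen, held 21 of the 549 (3.83%, 2.38 to 5.79), against 13.9% of the score-matched ERRα-only peaks and 5.49% of those in neither list. Chromosome 9 had 5 of the 549 (0.911%, 0.296 to 2.11), against 4.76% of the ERRα-only peaks, chromosome 12 had 2 (0.364%, ERRα-only 2.75%), and chromosome 16 had 3 (0.546%, ERRα-only 2.01%). Chromosome X had 5 (0.911%, 0.296 to 2.11), and the interval covers the 1.71% of the ERRα-only peaks; relative to its control peaks within 20 kb it had 2.1 per 100, close to the 2.15% over all chromosomes. Chromosomes 1, 6, 15 and 19, also grouped after their values were seen, held 166 (30.2%, 26.4 to 34.3), against 20.2% of the ERRα-only peaks and 30.8% of those in neither list. Chromosome 5, outside both groups, held 51 of the 549 (9.29%), against 7.39% of the ERRα-only peaks, a gap wider than that of chromosome 19 (7.29% of the 549, 5.62% of the ERRα-only peaks). Chromosomes 7 (8.38% of the 549, 10.2% of the ERRα-only peaks) and 10 (4.74% of the 549, 6.3% of the ERRα-only peaks) were also outside both groups. Their shortfalls in percentage points exceeded those of chromosomes 14, 16 and X. The whole lists leaned the same ways: the first group of chromosomes held 7.47% of all HCFC1-knockdown peaks, 11.9% of all ERRα-knockdown peaks and 9.9% of control peaks within 20 kb, and the second group held 24.8% of all HCFC1-knockdown peaks, 20.4% of all ERRα-knockdown peaks and 24.4% of control peaks within 20 kb. Per 100 control peaks within 20 kb the 549 numbered from 0.406 to 2.1 on the 5 chromosomes and from 1.02 to 2.96 on the other 15. The ERRα-only peaks numbered from 38.2 to 58.4 on the 5 and from 18 to 30.5 on the other 15. The 5 were grouped after their values were seen and are those with most ERRα-only peaks per 100. Their separation from the 15 therefore follows from the grouping. Whether the chromosome pattern belongs to the sites or to these 3 libraries cannot be told apart with 1 library per condition.

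**Figure D5:**
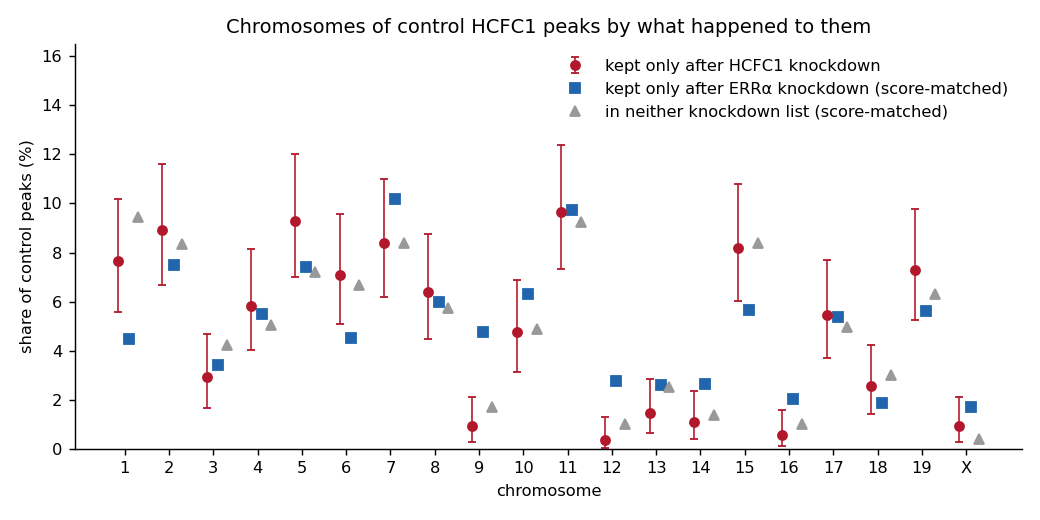
Share of control peaks (vertical axis, %) on each chromosome (horizontal axis) for the 549 peaks kept only after HCFC1 knockdown (red circles, exact 95% counting intervals), ERRα-only peaks (blue squares) and peaks in neither list within 20 kb (grey triangles), the blue and grey classes weighted to the scores of the 549. On chromosome 9 the red share was 0.911% and the blue share 4.76%, and on chromosome 1 the red share was 7.65% and the blue share 4.46%.

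The 15 sites on chromosomes 9, 12, 16 and X had a median control score of 34, against 33 for all 549. Chromosome 14, with 6 of the 549 (1.09%, ERRα-only 2.63%), is not included here. Chromosome 9 had peaks at Gnat1 (control score 49), Apoa5, a regulator of plasma triglycerides (34), Bbs4 (29), Kbtbd13 (28) and Mir8107 (23). Chromosome X had Iqsec2 (47), Pim2 (40), G530011O06Rik (36) and 2 peaks of the corepressor gene Bcor (34 and 18). Both chromosome 12 peaks were at Ltbp2 (62 and 34), and chromosome 16 had 2 at Scarf2 (47 and 21) and 1 at Mir1945 (33).

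The 549 touched the gene lists for HCFC1, ERRα, liver functions and other cell types about as often as the other classes did. Of 534 genes in 13 lists, 13 had one of the 549 (2.37%, 1.27 to 4.02, of the 549), against 3.42% of the score-matched ERRα-only peaks and 2.56% of those in neither list, both inside the interval. The list of HCFC1 and its partners had Creb3l2 (siHCFC1 17, siControl 34), a factor gene of the endoplasmic reticulum stress response. Hepatocyte genes gave Ass1, of the urea cycle (siHCFC1 34, siControl 58), oxidative phosphorylation gave Uqcrfs1, the Rieske subunit of complex III (siHCFC1 13, siControl 20), and the circadian clock gave Per1 (siHCFC1 27, siControl 24). The integrated stress response gave Ddit3, which encodes CHOP (siHCFC1 13, siControl 31), and the amino acid transporter gene Slc7a5 (siHCFC1 35, siControl 18). Replication and cell cycle gave the licensing factor gene Cdt1 (siHCFC1 40, siControl 31) and the proliferation marker Mki67 (siHCFC1 33, siControl 22), and the ribosome gave Mrpl38 (siHCFC1 22, siControl 29) and Rplp0 (siHCFC1 13, siControl 15). The immune list gave Cd14 (siHCFC1 32, siControl 42) and the muscle list Tnnt2 (siHCFC1 20, siControl 45). The lists for the TCA cycle and fatty acid oxidation, for cholesterol and fatty acid synthesis and for neuronal markers had 0 of the 549, against 0.203%, 0.399% and 0.0969% of the score-matched ERRα-only peaks in that order of lists. A share so low gives few peaks in a class of 549. Of these 13 peaks only that at Cdt1 was labelled promoter.

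The genes of both targeted proteins had no peak of the class. Both Hcfc1 control peaks were ERRα-only and lay under 1 ERRα-knockdown peak with a score of 2760, against 1924 and 76 in control cells. Of the 2 Esrra control peaks, 1 was kept after both knockdowns, with 13 after HCFC1 knockdown, 96 after ERRα knockdown and 125 in control cells, and the other, with 34 in control cells, was ERRα-only.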

How the data were processed

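HCFC1 binding was taken from the authors' deposited lists of annotated peaks, 1 per siRNA condition (3 HCFC1 libraries); the 3 IgG libraries were not analysed here. Per the submitters' processing notes, the tools were BWA 0.7.12, Picard 2.0.1, MACS2 2.1.1.20160309 and HOMER 4.11.1 on mm10, with no role stated. The deposited Peak Score is a whole-number score of unstated scale. Deposited starts, ends and distances are other values, in bp, used as given.

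Classes were built from overlaps of at least 1 bp. Score matching weighted each comparison peak by the share of the 549 at its exact control score; for the peaks in neither list 6 of the 549 had no peak of equal score and were left out. Shares carry exact binomial (Clopper-Pearson) 95% intervals. The overlap and weighting steps were checked on simulated data. The members, lists, comparisons and bands were chosen with earlier results of these data known. The named peaks were the 10 highest control scores overall and at promoters, the 5 highest HCFC1-knockdown scores, 5 in the clusters with most members within 1 Mb, the 3 nearest each limit of the ERRα-knockdown overlap, the 5 highest-scoring ERRα-only peaks (the text gives the first), the gene lists, Hcfc1 and Esrra. Some peaks this rule names are not reported here. Others were chosen after their values were seen. RefSeq held 515 of the 517 genes, but promoter windows for 43 of the 60 promoter genes (71.7%, under the 80% required), so motif shares over the class were void. Python 3.11.15, numpy 2.4.6, pandas 2.3.3, scipy 1.17.1 and matplotlib 3.10.9 were used. Alternatives were other overlaps and gaps, equal list lengths, stricter scores, merged peaks, other matchings and another promoter definition.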

Additional observations from a re-analysis of the deposited data

How the results depend on the processing

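The class held 549 peaks, and 1240 with a reciprocal overlap of at least 50%, 2000 with centres within 200 bp, 188 with no ERRα-knockdown peak within 5000 bp, 238 with lists of equal length, 238 from the higher-scoring 50% of control peaks and 1220 with ERRα-knockdown peaks trimmed to the median HCFC1-knockdown width. The other 6 counts lay between 395 and 548. The promoter difference, -10.7 percentage points, was -1.48 with reciprocal overlap, 1.68 with centres within 200 bp, -1.53 with no ERRα-knockdown peak within 5000 bp, -18.5 with equal lengths, -15.5 with higher-scoring control peaks, -14.1 with higher-scoring knockdown peaks, -16.2 without score matching, -23.1 with promoters as peaks within 1000 bp of a start and -6.44 with trimmed peaks. The intergenic difference, 11.3 points, was 0.495 with reciprocal overlap, -1.12 with centres within 200 bp and 4.67 with trimmed peaks. The width difference, -54 bp, was -100 with reciprocal overlap, 230 with centres within 200 bp, 6.5 with no ERRα-knockdown peak within 5000 bp, -96 with higher-scoring control peaks and -154 without score matching. The overlap and gap alternatives also changed which peaks made up the comparison class. The cause of these changes was not tested. The chromosome X difference, -0.8 points, ran from -1.2 to -0.305 over all 15 alternatives. Its counting interval takes in only the error of the share of the 549 and treats the ERRα-only share as fixed. It covered 0 as reported and lay below 0 with reciprocal overlap (-1.42 to -0.429), centres within 200 bp (-1.5 to -0.74) and trimmed peaks (-1.51 to -0.504).

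Trimming, leaving out the 46 peaks whose HCFC1-knockdown peak an ERRα-knockdown peak also touched (503 left) and keeping only control peaks within 20 kb (548) were chosen after seeing the data. No paired analysis was possible because each condition has 1 library. For the same reason no replicate could be left out, and how often a low-scoring peak is called again in a repeat library was not measured. Depth is unknown, so no detection limit can be given.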

Other observations

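Among repeat names, 1 stood out after the values were seen. RMER1 elements lay under 91 control peaks within 20 kb of a start, of which 8 were kept only after HCFC1 knockdown (8.79%, exact binomial 95% interval 3.87 to 16.6), 21 only after ERRα knockdown, 2 after both and 60 in neither list. Over all control peaks within 20 kb the share kept only after HCFC1 knockdown was 2.15%. That share also counts promoter and exon peaks, for which no repeat is named. Peaks with any repeat named numbered 97 kept only after HCFC1 knockdown, 532 only after ERRα knockdown, 171 after both and 2417 in neither list within 20 kb. The interval for RMER1 does not allow for its choice from other repeat names. The 8 lay near Chst3, Gm11482, Spire1, Ankfy1, Itpripl2, Fxyd4, Gsx1 and Ifitm6, on 7 chromosomes, with control scores from 22 to 42. Those at Ankfy1 and Itpripl2 had an ERRα-knockdown peak 61 and 15 bp away. How reads that match several copies of a repeat were placed is not stated in the sources used here.

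The Dux promoter peak, on chromosome 10, had a score of 106 after HCFC1 knockdown and 27 in control cells. Dux, an embryonic homeobox gene, lies in an array of near-identical copies, so the value is uncertain. The promoter peaks of Podxl2 and Wnt9a had 113 and 88 after HCFC1 knockdown, against 16 and 26 in control cells, and lay 367 and 371 bp from an ERRα-knockdown peak.

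At the 5′ UTR label, Slc7a2, an amino acid transporter gene, had 40 after HCFC1 knockdown and 55 in control cells, and Lpl, the lipoprotein lipase gene, had 22 after HCFC1 knockdown and 40 in control cells. The gap to the nearest ERRα-knockdown peak was 10193 bp at Slc7a2 and 274 bp at Lpl.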
